A study of Mus musculus with 8 samples.

Results

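Eicosanoids and platelet-activating factor (PAF) are lipid mediators, and 10 genes that make, degrade or sense them were followed in single CD11b+ cells of the mouse colon. The genes were Ptafr, Ptgs1, Ptgs2, Ptges, Hpgds, Hpgd, Ptger4, Alox5, Alox5ap and Ltc4s, and all 10 of them, among 16889 genes of the table, had a unique molecular identifier (UMI, a tag counted for each captured mRNA) in the cells kept. They were chosen as prostaglandin, leukotriene and PAF genes with earlier results of these cells in view, so the differences between conditions given for them are a description. The cells were CCR2+ or CD64+ cells sorted from the colonic lamina propria of female CD98hcΔCX3CR1 mice between 6 and 12 weeks of age, with a well of a droplet 3′ kit for each mouse. Every mouse carried floxed CD98hc (Slc3a2) alleles and a tamoxifen-dependent Cre recombinase with a yellow fluorescent protein (EYFP) at the Cx3cr1 locus, so deletion was directed at cells that express Cx3cr1. The 4 control mice (replicates 1 to 4) were injected with corn oil and the 4 cKO mice (replicates 5 to 8) with 100 µl of tamoxifen at 20 mg/ml on 5 days, and cells were taken on day 7. Only cKO mice received tamoxifen, so what the drug does and what the deletion does cannot be told apart.

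Cyclooxygenases, encoded by Ptgs1 and Ptgs2, turn arachidonic acid into prostaglandin H2, from which terminal synthases make prostaglandin E2 (Ptges) or prostaglandin D2 (Hpgds). Prostaglandin E2 acts on receptors such as EP4 (Ptger4) and is inactivated by 15-hydroxyprostaglandin dehydrogenase (Hpgd). The other branch starts with 5-lipoxygenase (Alox5) and its activating protein (Alox5ap) and leads through leukotriene C4 synthase (Ltc4s) to cysteinyl leukotrienes, and PAF acts on a receptor of its own (Ptafr). In the intestine, Ptgs1 is known as the more constitutive and Ptgs2 as the inducible cyclooxygenase, and monocytes and macrophages are among the sources of these lipids.

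The upstream sequences of Ptafr, Ptgs1, Ptgs2 and Hpgd are shown because Ptafr, Ptgs1 and Hpgd passed the test over all cells and Ptgs2 is the partner of Ptgs1. They are the 250 bases before the RefSeq start of each gene (GRCm38.p6), written 5′ to 3′ along the gene. The letters searched, on both strands, were GAGGAA (the core that ETS factors such as PU.1 read), TTNNGCAA (C/EBP), TATAAA, an NF-κB consensus, CACGTG (E-box) and TGACGTCA (CRE), and matches stand in capitals.
Ptafr (chr4:132563817-132564066, plus strand): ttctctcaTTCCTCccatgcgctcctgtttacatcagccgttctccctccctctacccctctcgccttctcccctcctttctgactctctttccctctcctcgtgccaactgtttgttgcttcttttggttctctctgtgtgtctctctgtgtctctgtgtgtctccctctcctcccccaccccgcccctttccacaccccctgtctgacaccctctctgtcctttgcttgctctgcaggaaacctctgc
Ptgs1 (chr2:36230176-36230425, plus strand): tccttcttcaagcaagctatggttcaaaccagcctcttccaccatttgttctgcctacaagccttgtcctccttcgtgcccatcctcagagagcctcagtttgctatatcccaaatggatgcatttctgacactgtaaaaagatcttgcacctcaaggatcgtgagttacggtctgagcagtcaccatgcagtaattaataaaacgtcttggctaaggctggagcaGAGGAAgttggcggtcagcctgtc
Ptgs2 (chr1:150099781-150100030, plus strand): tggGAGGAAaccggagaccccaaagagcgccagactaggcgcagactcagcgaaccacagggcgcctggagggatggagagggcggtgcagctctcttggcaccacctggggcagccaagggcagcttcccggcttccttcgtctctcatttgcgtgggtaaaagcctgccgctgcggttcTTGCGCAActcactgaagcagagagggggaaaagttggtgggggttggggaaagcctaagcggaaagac
Hpgd (chr8:56294302-56294551, plus strand): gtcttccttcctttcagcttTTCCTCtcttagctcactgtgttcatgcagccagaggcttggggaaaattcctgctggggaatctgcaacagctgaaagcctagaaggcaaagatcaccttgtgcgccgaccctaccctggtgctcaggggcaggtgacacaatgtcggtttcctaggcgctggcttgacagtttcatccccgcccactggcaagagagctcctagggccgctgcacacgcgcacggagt
GAGGAA was found in 7 of the 9 genes with a sequence (no sequence is given for Alox5ap), and in 23.3% of 32851 upstream regions of the same length. In Ptgs1 it ended 19 bases before the start, while in Ptafr, Ptgs2 and Hpgd its first base lay 242, 247 and 230 bases before it. TTNNGCAA was found in Ptgs2, from -69 to -62, and in Hpgds, from -176 to -169, and in 9.56% of all regions. The other motifs, held by 12.4% (TATAAA), 1.41% (NF-κB consensus), 6.02% (CACGTG) and 1.55% (TGACGTCA) of all regions, were not matched in these 9 windows. A match describes the letters and is no evidence of binding.

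Of 5947 barcodes, 3213 cells were kept, 1863 of control and 1350 of cKO mice, with between 497531 and 3762314 UMIs per mouse. Control replicate 3 and cKO replicate 5 gave 85 and 83 cells against 349 to 724 in the other mice, and 24 of the 83 cells of cKO replicate 5 were called doublets. Among the cells kept, 8 barcode sequences occurred in more than 1 library. The UMIs of Slc3a2 were not lower in cKO (233 to 493 CPM, the UMIs of a gene per 1000000 UMIs, in control and 291 to 357 CPM in cKO, adjusted p = 0.976, edgeR), and as only part of the gene is excised, 3′ tags do not check the deletion. The cells fell into 9 clusters, named from markers. These were monocyte-like (576 cells), dendritic cell-like (537), macrophage-like (444), low-UMI macrophage-like (260, a median of 1164 UMIs per cell), lymphoid-like (188) and stromal-like cells (86), and clusters led by Ccr2 and Adgre4 (501), by Saa3 and Ccl24 (366) and by Cebpb and Dusp2 (255). The labels call all cells monocytes and macrophages, yet dendritic cell-like, lymphoid-like and stromal-like clusters were among them. The 10 genes were left out of the clustering, and their levels across clusters are a description without a test.

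In control mice the cyclooxygenases were highest in different clusters (the map of levels by cluster). Ptgs1 was highest in macrophage-like cells, at 189 CPM over the pooled cells, followed by low-UMI macrophage-like cells at 109 CPM and stromal-like cells at 105 CPM. It was low in monocyte-like cells at 6.53 CPM, from 4 UMIs, and in dendritic cell-like cells at 2.85 CPM, and macrophage-like cells held 72.0% of its 565 control UMIs. Ptgs2 was highest in the Cebpb/Dusp2 cluster at 313 CPM and in the Saa3/Ccl24 cluster at 219 CPM, whose 95% Poisson intervals (247 to 391 CPM and 190 to 252 CPM) overlap. These intervals hold counting error and not the spread between mice. Control replicate 4 gave 117 of the 164 control cells of the Saa3/Ccl24 cluster and 158 of their 196 Ptgs2 UMIs. Monocyte-like cells held 73.4 CPM of Ptgs2 and macrophage-like cells 36.3 CPM. In all 5 mice with at least 20 cells of each kind (3 control and 2 cKO mice), Ptgs1 was higher in macrophage-like than in monocyte-like cells, by 3.44 ± 0.74 (SD) on the scale of log2(CPM + 10). Ptgs2 is itself among the leading genes of the Cebpb/Dusp2 cluster, a cluster of few UMIs per cell (a median of 1512). When cells were clustered on all genes, its control level in the matching cluster was 73.5 CPM in place of 260 CPM. That cluster of 626 cells held 102 of the 255 cells of the Cebpb/Dusp2 cluster and 336 of the Ccr2/Adgre4 cluster, so its level is mostly that of other cells.

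The terminal synthases were separated further. Hpgds followed Ptgs1, with 217 CPM in macrophage-like and 201 CPM in low-UMI macrophage-like cells, whose intervals overlap, and at most 28.4 CPM in any other cluster. Macrophage-like cells held 78.5% of the 595 control UMIs of Hpgds, and 68.4% of the macrophage-like cells with a Ptgs1 UMI also had one of Hpgds, against 44.3% of those without (description over 444 cells, in which deeper cells have more of every gene). Ptges was a gene of the stromal-like cells, at 141 CPM, and these 68 control cells held 90.4% of its 52 control UMIs. All other clusters were at or below 1.90 CPM in control mice.

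Hpgd, which ends prostaglandin signaling, was highest in low-UMI macrophage-like cells at 167 CPM and in macrophage-like cells at 101 CPM, with overlapping intervals. Monocyte-like cells followed with 66.9 CPM and the Ccr2/Adgre4 cluster with 55.0 CPM, and the Saa3/Ccl24 cluster, which was high in Ptgs2, held only 4.48 CPM from 4 UMIs. Ptger4 was broad. It ranged from 110 CPM in the Cebpb/Dusp2 cluster and 80.0 CPM in macrophage-like cells to 19.6 CPM in monocyte-like cells and 11.5 CPM, from 2 UMIs, in low-UMI macrophage-like cells. With other clusterings the highest value moved to between 56.5 and 73.2 CPM, from a mean of 121 CPM per mouse. The clusters matched there to the Cebpb/Dusp2 cluster held 626 and 469 cells, with 102 and 235 of its 255 cells.

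In the leukotriene branch the enzyme and its partner were highest in different clusters. Alox5ap was highest in monocyte-like cells at 1488 CPM and was next in dendritic cell-like cells at 716 CPM, with intervals that do not overlap, and lowest in stromal-like cells at 30.0 CPM. It was below monocyte-like cells in macrophage-like cells of all 5 mice (the same 3 control and 2 cKO mice), by 2.40 ± 0.54 (SD) on the log2(CPM + 10) scale. Alox5 was sparse, with 91 UMIs in 69 of 3213 cells. Its control levels were 20.5 CPM in macrophage-like (44 UMIs) and 23.0 CPM in low-UMI macrophage-like cells (4 UMIs). They compare with 12.6 CPM in lymphoid-like (5 UMIs) and 3.26 CPM in monocyte-like cells (2 UMIs). In macrophage-like cells of control mice Alox5ap was at 254 CPM. An Alox5ap UMI was seen in 59.5% of the macrophage-like cells with an Alox5 UMI and in 62.2% of those without. Ltc4s was, like Hpgds, a gene of the macrophage-like cells, at 57.7 CPM and, in the low-UMI cluster, 80.5 CPM, and was at 3.26 CPM in monocyte-like cells. Of the 37 macrophage-like cells with an Alox5 UMI, 40.5% (15 cells) had a Ltc4s UMI as well, against 17.2% of the other cells of this cluster. These shares pool mice and conditions, and deeper cells have more of each gene. Over all cells, control replicates 1 and 2 held 22 and 38 of the 91 Alox5 UMIs, and 93 and 73 of the 268 Ltc4s UMIs.

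Ptafr, the PAF receptor, was highest in the Saa3/Ccl24 cluster at 200.3 CPM, in the Cebpb/Dusp2 cluster at 163 CPM and in monocyte-like cells at 109 CPM, and the first of these intervals overlaps the second but not that of monocyte-like cells (172 to 232 CPM against 84.7 to 139 CPM). Such intervals hold counting error only, and control replicate 4 gave 117 of the 164 control cells of the Saa3/Ccl24 cluster. Macrophage-like cells held 49.8 CPM of Ptafr and lymphoid-like cells 7.58 CPM. When cells were clustered on a graph, the level of the matching cluster was 96.6 CPM in place of 207 CPM, both as means per mouse. That cluster of 623 cells held 160 of the 366 cells of the Saa3/Ccl24 cluster and 324 of the Ccr2/Adgre4 cluster, so its level is mostly that of other cells. In control mice a Ptafr UMI was seen in 28.1% of the monocyte-like cells (95% Wilson interval 21.6 to 35.7%, a median of 4035 UMIs per cell) and in 3.23% of the lymphoid-like cells, where its level was lowest. Thinned to 1000 UMIs per cell these shares were 10.2% and 1.21%.

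**Figure D1:**
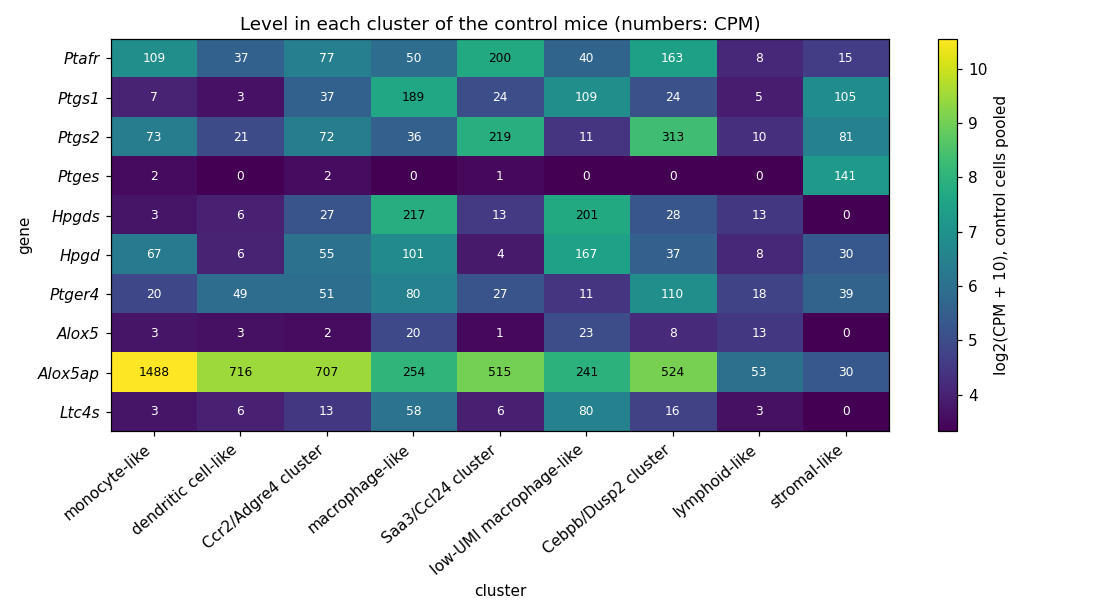
Levels of the 10 genes (rows) in the 9 clusters (columns) over the pooled control cells, as CPM in each cell and as log2(CPM + 10) in colour, to be compared within a row. Ptgs1, Hpgds and Ltc4s are brightest in the macrophage-like clusters, Alox5ap in monocyte-like cells (1488 CPM) and Ptges in stromal-like cells (141 CPM).

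Conditions were first compared over all cells of a mouse, where a smaller share of a cell type and less RNA per cell cannot be told apart. Of the 10 genes, 3 passed the threshold (adjusted p under 0.05 over all genes tested, from the quasi-likelihood test of edgeR). Ptafr rose and Ptgs1 and Hpgd fell, where 4.48% of 11387 genes passed, 2.99% higher and 1.48% lower in cKO. Their median log2 fold change was -0.37, with 4 above and 6 below 0, and that of all genes was -0.03. In 4 of the 10 genes the mice of both conditions did not overlap on CPM, Ptafr and Alox5ap above (4.0% of all genes) and Ptgs1 and Hpgd below (8.34%). After TMM scaling Ptgs2 joined those above (5.85% of all genes, 6.11% below).

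The composition of the sums differed as well. The summed level of the 8 monocyte markers, all detected, was 1601 to 3274 CPM in control and 6986 to 10247 CPM in cKO mice, that of 17 macrophage markers 11917 to 23761 CPM and 10008 to 16154 CPM, and that of 9 stromal markers 641 to 2117 CPM and 241 to 784 CPM. The 9 dendritic cell markers, all detected, summed to 1043 to 1270 CPM in control and 418 to 519 CPM in cKO mice, without overlap, and 433 of the 1863 control and 104 of the 1350 cKO cells were dendritic cell-like. Mast cell and basophil markers, whose cells also make these lipids, were at 7.97 to 19.9 CPM in control and 3.02 to 8.04 CPM in cKO mice, with Mcpt1, Mcpt2, Mcpt4, Tpsb2 and Cma1 at 0. Of 5 platelet markers, Gp9 and Gp1bb were at 0. Lymphoid markers were at 212 to 8820 CPM in control and 4319 to 13004 CPM in cKO mice. The part of these cell types in the differences over all cells was not tested.

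The PAF receptor differed most. Ptafr was at 66.2, 45.9, 71.3 and 82.5 CPM in control replicates 1 to 4 and at 263, 189, 249 and 183 CPM in cKO replicates 5 to 8. Every cKO mouse was above every control mouse, with a wide gap between the groups. The log2 fold change was 1.83 ± 0.21 (SE), 3.57-fold, with adjusted p = 0.000736.

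Of the cyclooxygenases, Ptgs1 was at 52.4, 69.1, 35.6 and 40.7 CPM in control and at 32.2, 27.2, 17.3 and 24.9 CPM in cKO mice. The groups were separated by a narrow gap, and the fall was -0.96 ± 0.23 on the log2 scale (adjusted p = 0.0393). Ptgs2 was at 41.7, 23.2, 81.5 and 118 CPM in control and at 117, 124, 314 and 151 CPM in cKO mice. Control replicate 4 reached the level of cKO replicate 5, cKO replicate 7 stood above all others, and the difference of 1.57 ± 0.47 did not pass (adjusted p = 0.0777). Ptgs2 passed in 3 of 14 alternatives, with DESeq2 (1.54, adjusted p = 0.0282), without a low-count filter (1.58, adjusted p = 0.0116) and without control replicate 4 (2.13, adjusted p = 0.0183).

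Of the terminal synthases neither passed over all cells. Hpgds was at 63.3, 67.3, 49.2 and 36.3 CPM in control and 38.2, 35.1, 25.7 and 32.4 CPM in cKO mice (-0.66 ± 0.22, adjusted p = 0.104). Ptges was at 5.32, 4.89, 1.70 and 5.05 CPM in control and 12.1, 4.23, 13.7 and 4.81 CPM in cKO mice (0.91 ± 0.42, adjusted p = 0.251). The groups overlap in both genes, and most of the control UMIs of Ptges were those of stromal-like cells.

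Both synthases were also read without the dendritic cell-like, lymphoid-like and stromal-like clusters, where 3.3% of 10031 genes passed and 5 of the 10 genes did. Outside these clusters Ptges had 3, 1, 0 and 1 UMIs in control replicates 1 to 4 and 6, 1, 32 and 8 UMIs in cKO replicates 5 to 8. The levels were 0 to 1.32 CPM in control and 0.811 to 15.8 CPM in cKO mice, which overlap through cKO replicate 6, and the fitted difference was 3.20 ± 0.81 (adjusted p = 0.0443). Hpgds ranged from 62.4 to 139 CPM in control and from 28.2 to 44.6 CPM in cKO mice there, with no overlap (-1.35 ± 0.24, adjusted p = 0.00702). The other genes that passed there were Ptafr (1.53), Ptgs1 (-1.68) and Hpgd (-2.35).

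Hpgd was at 42.5, 58.7, 18.7 and 21.5 CPM in control and at 8.04, 13.3, 4.83 and 16.2 CPM in cKO mice. All cKO mice were below all control mice, control replicates 1 and 2 stood above the other controls, and the fall was -1.67 ± 0.41 (adjusted p = 0.0391). Without the mice of 85 and 83 cells, Ptafr and Ptgs1 passed and Hpgd did not (-1.75, adjusted p = 0.0578). Ptger4, the receptor, was at 74.2, 49.5, 54.3 and 24.6 CPM in control and 54.3, 40.5, 33.8 and 43.7 CPM in cKO mice, within the control range (-0.17 ± 0.29, adjusted p = 0.788). The Ttc33 gene overlaps Ptger4 on the opposite strand.

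None of the 3 leukotriene genes Alox5, Alox5ap and Ltc4s passed. Alox5ap was at 586, 602, 463 and 607 CPM in control and at 609, 676, 820 and 752 CPM in cKO mice, without overlap but with control replicate 4 and cKO replicate 5 side by side (0.44 ± 0.15, adjusted p = 0.112). Alox5 was at 5.85, 11.6, 1.70 and 3.70 CPM in control and 2.01, 2.42, 1.61 and 4.37 CPM in cKO mice (-1.13 ± 0.51, adjusted p = 0.237). Ltc4s was at 24.7, 22.3, 10.2 and 7.40 CPM in control and 14.1, 9.67, 11.3 and 10.1 CPM in cKO mice (-0.56 ± 0.36, adjusted p = 0.423).

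**Figure D2:**
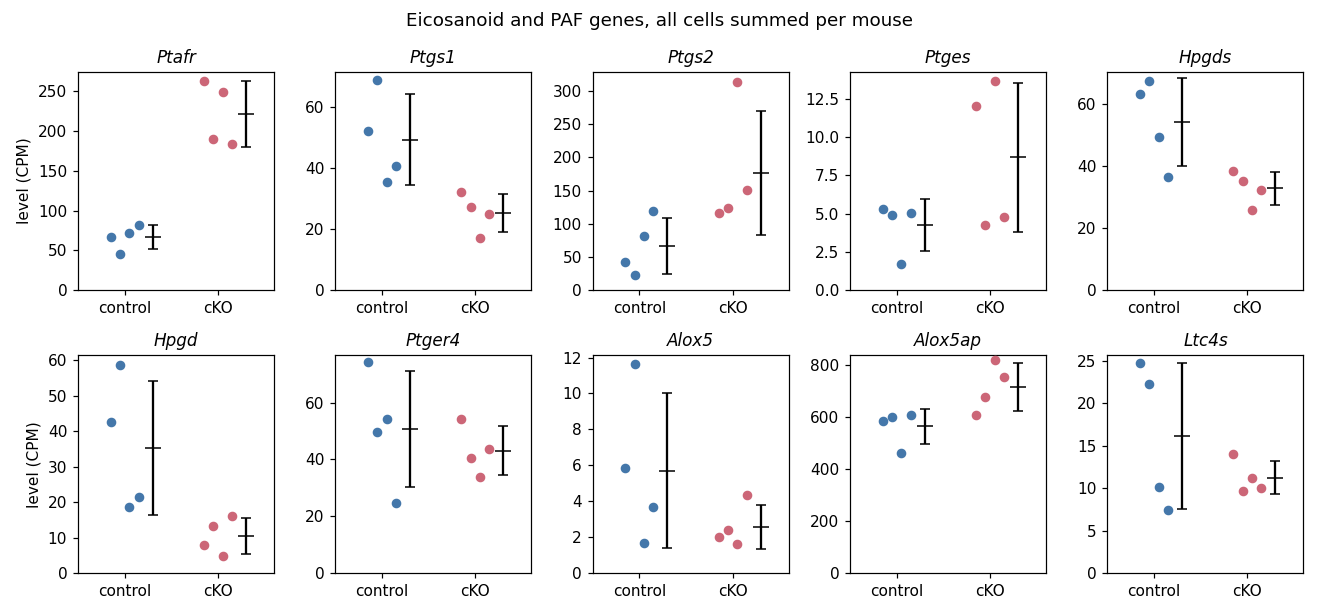
Level (CPM) of each of the 10 genes over all cells of a mouse, in 4 control and 4 cKO mice (points), with the mean and SD beside them and each axis starting at 0. Ptafr is above all controls in every cKO mouse (183 to 263 CPM against 45.9 to 82.5 CPM), and Ptgs1 and Hpgd are below them.

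Conditions were then compared within clusters, on UMIs summed per mouse and cluster (at least 20 cells), in the 6 clusters with 3 or more such sums in each condition. Of the 60 pairs of gene and cluster, 2 passed, Ptafr and Hpgd in monocyte-like cells, where 0.957% of 11280 genes passed in that cluster and 0.372% of all pairs of gene and cluster. In the other clusters none of the 10 genes passed, where 0.567% of all genes did in the Ccr2/Adgre4 cluster, 0.16% in the Cebpb/Dusp2 cluster, 0.381% in dendritic cell-like, 0.0975% in low-UMI macrophage-like and 0.0709% in lymphoid-like cells. In simulated data the cluster fits recovered 11 to 90 of 200 genes changed 4-fold. A pair that did not pass is therefore not shown to be unchanged.

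In monocyte-like cells Ptafr was at 131, 80.0 and 104 CPM in control replicates 1, 2 and 4 and at 279, 309 and 322 CPM in cKO replicates 6, 7 and 8. The groups lay far apart, and Ptafr rose by 1.69 ± 0.29 on the log2 scale (adjusted p = 0.000132). A Ptafr UMI was seen in 28.1% of the control and 62.4% of the cKO monocyte-like cells, and in 3.23% and 1.05% of lymphoid-like cells (medians of 4035 and 5233 UMIs in monocyte-like cells). Thinned to 1000 UMIs, the shares of monocyte-like cells were 10.2% and 26.0%.

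The other clusters held differences of Ptafr that did not pass. In the Cebpb/Dusp2 cluster it was at 119, 224 and 171 CPM in control and 405, 398 and 422 CPM in cKO mice (1.24 ± 0.35, adjusted p = 0.194). In dendritic cell-like cells it was at 27.4 to 46.8 CPM in 4 control and 63.4 to 105 CPM in 3 cKO mice (1.10 ± 0.29, adjusted p = 0.0831). Neither pair of groups overlaps, but the share of all genes without overlap in these clusters was not counted. DESeq2, which made more calls over all genes than edgeR, called both (adjusted p = 0.0123 and 0.00154). The 8 monocyte markers moved alongside in dendritic cell-like cells, from 1029 to 1832 CPM in control to 2215 to 3041 CPM in cKO mice without overlap, and overlapped in the Cebpb/Dusp2 cluster (3407 to 4627 CPM and 4083 to 8121 CPM). In the Ccr2/Adgre4 cluster the groups overlap (68.7 to 102 CPM and 72.5 to 151 CPM, 0.48 ± 0.29), as they do in low-UMI macrophage-like cells (0.16 ± 0.72). In the Saa3/Ccl24 cluster, not tested with 2 control sums, Ptafr was at 243 and 171 CPM in control and 283, 329 and 343 CPM in cKO mice, and the monocyte markers at 3698 to 4546 CPM and 6207 to 7890 CPM. The part of these markers in the differences of Ptafr was not tested. The interaction of cluster and condition asks whether the difference varies between the tested clusters. It was not called for Ptafr by edgeR (adjusted p = 1, unadjusted p = 0.0255), where 0.00887% of 11280 genes were called. The difference is thus not shown to be the same in all clusters.

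Hpgd went the other way in monocyte-like cells. It was at 35.0, 109 and 73.4 CPM in control and at 4.51, 2.81 and 8.57 CPM in cKO mice. The highest cKO mouse was below the lowest control mouse, and Hpgd fell by 3.53 ± 0.60 on the log2 scale (adjusted p = 0.000166), from 41 UMIs in 153 control cells and 10 UMIs in 423 cKO cells. The share of monocyte-like cells with a Hpgd UMI was 17.6% in control and 1.89% in cKO, and 3.23% and 0% in lymphoid-like cells. Thinned to 1000 UMIs per cell, it was 6.06% and 0.446% in monocyte-like cells. Within this cluster the 17 macrophage markers summed to 3688 to 4583 CPM in control and 1257 to 1765 CPM in cKO mice, and the 8 monocyte markers to 11564 to 12936 CPM and 15341 to 17526 CPM, and their part in these differences was not tested.

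Elsewhere Hpgd did not pass. In the Ccr2/Adgre4 cluster it was at 53.2, 68.7, 15.7 and 60.2 CPM in control and 18.9, 33.0 and 16.8 CPM in cKO mice, and the ranges overlap through control replicate 3 (-1.41 ± 0.50, adjusted p = 0.394). In the Cebpb/Dusp2 cluster 9 UMIs were seen in control and 0 in cKO cells, pooled over mice, which against a floor of 3 UMIs over the group is 2.48-fold lower. With counting error of both groups, the exact 95% interval of the ratio of cKO to control reached up to 0.614. In low-UMI macrophage-like cells, where its control level was highest, it was at 144, 284 and 54.8 CPM in control and 134, 94.7 and 141 CPM in cKO mice (-0.34 ± 0.59, adjusted p = 1). The interaction was not called for Hpgd either (adjusted p = 0.604, unadjusted p = 0.00385, edgeR).

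Ptgs2 in monocyte-like cells was at 91.9, 21.8 and 90.7 CPM in control and at 67.6, 267 and 218 CPM in cKO mice. Replicate 6 lay within the control range and the other cKO mice above it (1.57 ± 0.49, adjusted p = 0.124). In the Cebpb/Dusp2 cluster it was at 252, 89.5 and 437 CPM in control and 280, 1015 and 555 CPM in cKO mice (1.09 ± 0.49, adjusted p = 0.728). Ptgs1 did not share the direction of all cells everywhere, with 0.41 ± 0.43 in the Ccr2/Adgre4 cluster (adjusted p = 0.929). For Ptgs2 in the Saa3/Ccl24 cluster, not tested, the 2 control sums were at 138 and 249 CPM and the 3 cKO sums at 325, 590 and 423 CPM. Ptges in this cluster had 1 UMI in 164 control cells and 26 UMIs in 202 cKO cells, at 4.17, 31.2 and 8.94 CPM in the 3 cKO mice.

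Macrophage-like cells missed the limit of 3 sums in cKO by 1 cell (19 cells in cKO replicate 6) and were tested from 10 cells, and joined with the low-UMI cluster, an addition made after seeing the data. Ptgs1 was at 152, 210 and 247 CPM in control replicates 1, 2 and 4 and at 86.4 and 84.8 CPM in cKO replicates 7 and 8, and fell by 1.31 ± 0.34 from 10 cells (adjusted p = 0.0489, 0.513% of 11313 genes) and by 1.28 ± 0.32 in the joined clusters (adjusted p = 0.0434, 0.46% of 11312 genes). Of the 8 joined fits that leave out a mouse, 1 called Ptgs1 (-1.40 to -1.17, adjusted p from 0.0211 to 0.258). Hpgds was at 214, 219 and 232 CPM in control and 140 and 130 CPM in cKO macrophage-like cells (-0.77 ± 0.31, adjusted p = 0.439). Hpgd (-1.91 ± 0.53, adjusted p = 0.0946) and Ltc4s (-1.78 ± 0.53, adjusted p = 0.157) did not pass there. In the joined clusters the macrophage markers summed to 55640 to 70170 CPM in control and 42217 to 56242 CPM in cKO mice, and their part was not tested.

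**Figure D3:**
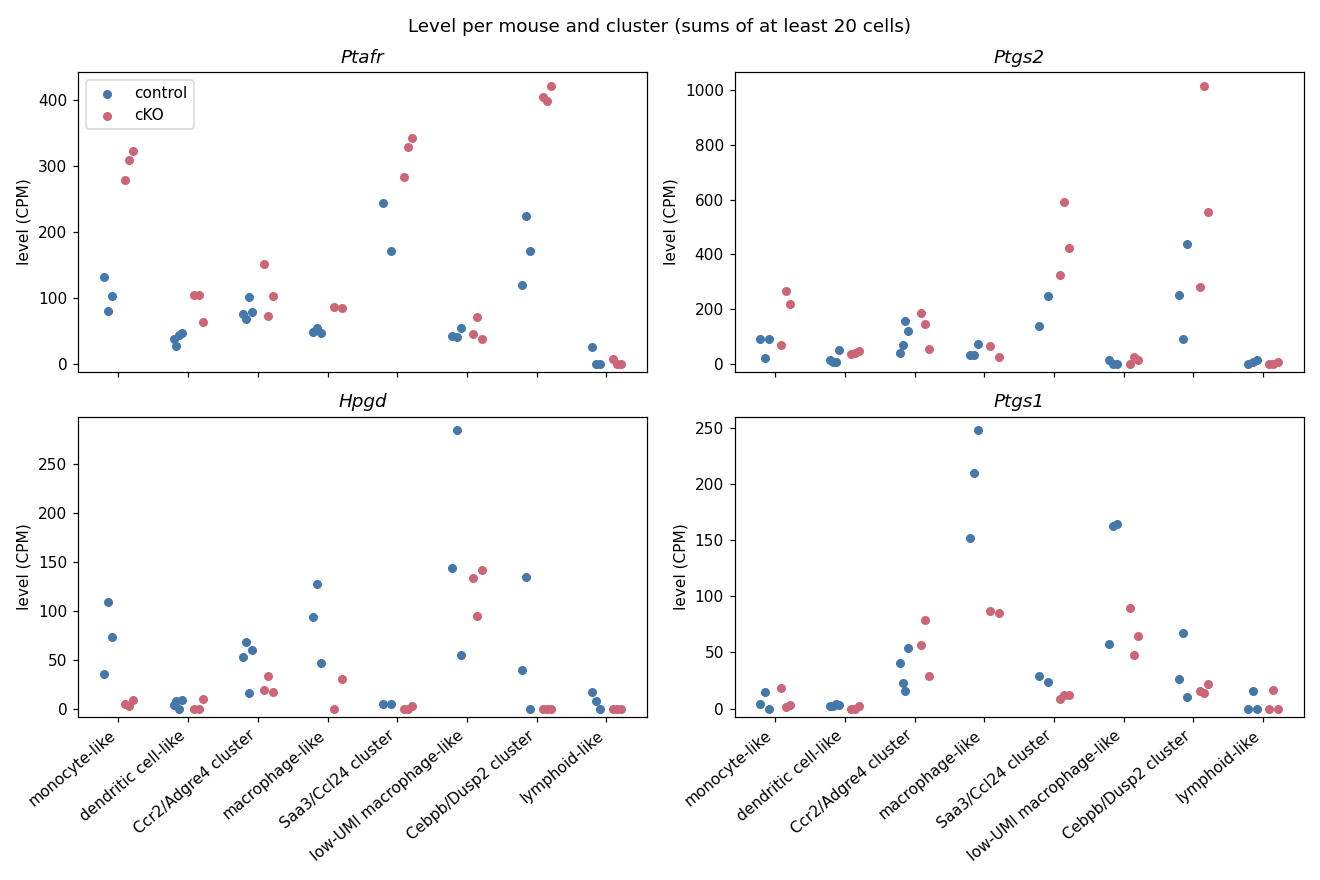
Level (CPM) of Ptafr, Ptgs2, Hpgd and Ptgs1 in 8 clusters, each point the sum of at least 20 cells of a control or a cKO mouse. In monocyte-like cells the cKO mice are above the controls for Ptafr (279 to 322 CPM against 80.0 to 131 CPM) and below them for Hpgd, and Ptgs1 is at 152 to 247 CPM in control and 84.8 to 86.4 CPM in cKO macrophage-like cells.

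Levels were also averaged over the 6 tested clusters with equal weights, so that cell numbers play no part, in the 3 control and 3 cKO mice with over 100 cells. With 20 arrangements of these mice, the exact permutation test (both sides) cannot give a p below 0.1. On the log2(CPM + 10) scale the differences were 0.67 for Ptafr and -1.13 for Hpgd, both with exact p = 0.1, and 0.70 for Ptgs2 (exact p = 0.2), in the direction seen over all cells. Alox5 (-0.52) and Ptges (0.28), both sparse, also reached exact p = 0.1. Ptgs1 and Hpgds differed by -0.17 (exact p = 0.7) and 0.20 (exact p = 0.5), but the 6 clusters leave out macrophage-like cells, which held most of the control UMIs of both. With that cluster added, from 10 cells, the differences were -0.32 (exact p = 0.3) and 0.081 (exact p = 0.8). Alox5ap, with the opposite sign to all cells, differed by -0.17 (exact p = 0.5), and its level in monocyte-like cells was 1436 to 1600 CPM in control and 1343 to 1435 CPM in cKO mice.

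The share of Ptgs2 among the UMIs of both cyclooxygenases joins these results. As the genes may be captured unequally, the share is set side by side between samples and is no ratio of the mRNAs. It was 44.4, 25.2, 69.6 and 74.4% in control replicates 1 to 4 and 78.4, 82.0, 94.8 and 85.8% in cKO replicates 5 to 8, with the highest control next to the lowest cKO mouse. Over pooled cells, Ptgs2 made up 16.1% in control and 34.7% in cKO macrophage-like cells. It made up 65.9 and 73.3% in the Ccr2/Adgre4 cluster, and 91.8 and 97.2% in monocyte-like cells. By mouse, the conditions overlapped in each of these clusters. In macrophage-like cells, cKO replicates 7 and 8 were at 42.9 and 22.7%, and control replicate 4 was at 22.9%. In the Ccr2/Adgre4 cluster, control replicate 3 (90.9%) was above the cKO mice (64.7 to 76.6%). In monocyte-like cells, cKO replicate 6 (78.9%) was below control replicate 1 (95.5%). In the Saa3/Ccl24 cluster the conditions did not overlap, with 82.9 and 91.3% in control and 97.3 to 97.9% in cKO mice. Dendritic cell-like cells did not overlap either, from few UMIs (66.7 to 93.8% in control and 94.7 to 100% in cKO mice). Pooled stromal-like (43.5 and 10.0%) and lymphoid-like cells (66.7 and 33.3%, from few UMIs) were lower in cKO. The difference in share within clusters was not tested. Of the 424 cells with a Ptgs1 UMI, 77 (18.2%) also had one of Ptgs2, against 22.6% of the cells without, and in macrophage-like cells 23 of the 209 with a Ptgs1 UMI had one, against 11.5% of those without.

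The cells that held each pair were counted next. In monocyte-like cells 37.8% of the 307 cells with a Ptafr UMI had one of Ptgs2 and 16.4% of the others did, over both conditions and with deeper cells having more of each. Across 49 sums per mouse and cluster, which share libraries, Pearson's r of log2(CPM + 10) was 0.81 for Ptafr and Ptgs2, 0.71 for Ptgs1 and Hpgds, 0.70 for Hpgds and Ltc4s, and -0.30 for Alox5 and Alox5ap. Among 4754 genes, the closest to Ptafr were Il1b (r = 0.90), Plek and Tgfbi, and those to Ptgs2 were Tnfaip2 (0.90), Maff and Mcl1. The closest to Ptgs1 were Selenop (0.86), Camk1 and Pltp, to Hpgds Fcrls (0.89), Ccl12 and Pf4, and to Ltc4s Fcrls (0.80), Pf4 and Ms4a7. Hpgd was closest to Dhrs3 (0.73), Selenop and Ntpcr, Ptger4 to Zfhx3 (0.75), Cbl and Ubn2, and Alox5ap to Lgals3 (0.92), Gpx1 and Psap. The closest to the sparse Ptges were C1s1 (0.75), Meg3 and Ccdc80. For the sparse Alox5 (Serinc3, 0.59, Cbr1 and Ifi27) the likeness was weakest.

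Other genes of these pathways were taken from a list of 67, of which 59 were in the table and 39 were tested over all cells. Of the 39, 4 (10.3%) had an adjusted p under 0.05 (edgeR), 3 higher and 1 lower in cKO, where 4.48% of all genes tested did, and their median log2 fold change was 0.05. At an unadjusted p under 0.05 there were 14 of the 39 (35.9%), against 20.6% of all genes. Tbxas1, thromboxane synthase, fell from 90.5 ± 17.6 to 48.7 ± 7.43 CPM (mean ± SD, n = 4 each), by 0.79 ± 0.18 on the log2 scale (adjusted p = 0.0322, edgeR), and was the only prostanoid synthase of 7 tested that passed. Its control level was highest in macrophage-like cells at 136 CPM. Mgst1, a microsomal glutathione transferase, rose from 63.7 ± 21.8 to 144 ± 49.8 CPM (1.27 ± 0.27, adjusted p = 0.0248), and Cyp4f18, which can oxidize leukotriene B4, from 138 ± 37.5 to 239.8 ± 36.0 CPM (0.88 ± 0.19, adjusted p = 0.0248). Both are among the leading genes of a cluster, Mgst1 of monocyte-like cells (526 CPM in control) and Cyp4f18 of the Ccr2/Adgre4 cluster (308 CPM). Fpr2, a receptor for lipoxin A4 and annexin A1, rose from 14.9 ± 6.27 to 36.8 ± 19.6 CPM (1.5 ± 0.38, adjusted p = 0.0447), and was highest in the Saa3/Ccl24 cluster at 69.4 CPM.

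By role, none of 5 phospholipase A2 genes, 4 prostanoid receptors, 4 prostanoid reductases or transporters, 2 leukotriene receptors and 7 genes of PAF synthesis or breakdown passed, nor did the 1 epoxide hydrolase tested. Of 7 genes listed as leukotriene enzymes Mgst1 and Cyp4f18 did. That listing counts Mgst1 with its relatives Mgst2 and Mgst3, which did not pass (adjusted p = 0.795 and 0.914, edgeR). At an unadjusted p under 0.05 these 6 groups without a call held 2, 1, 0, 1, 2 and 0 genes. Pla2g7, the plasma PAF acetylhydrolase that degrades the ligand of Ptafr, was at 234 ± 41.6 CPM in control and 331 ± 58.2 CPM in cKO mice (0.60 ± 0.17, adjusted p = 0.0740). Ltb4r1, the leukotriene B4 receptor, was at 68.5 ± 27.4 and 131 ± 80.2 CPM (1.07 ± 0.40, adjusted p = 0.159), and Lpcat2, which makes PAF, at 131 ± 26.3 and 139 ± 7.44 CPM (0.16 ± 0.16, adjusted p = 0.609). These 3 genes were named after their values were seen. Within the 6 clusters, none of the 234 pairs of list gene and cluster passed with edgeR, where 0.372% of all pairs did, and 14 (5.98%) had an unadjusted p under 0.05, against 6.54% of all pairs. DESeq2 and limma-voom called none either (11 and 25 at an unadjusted p under 0.05).

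**Figure D4:**
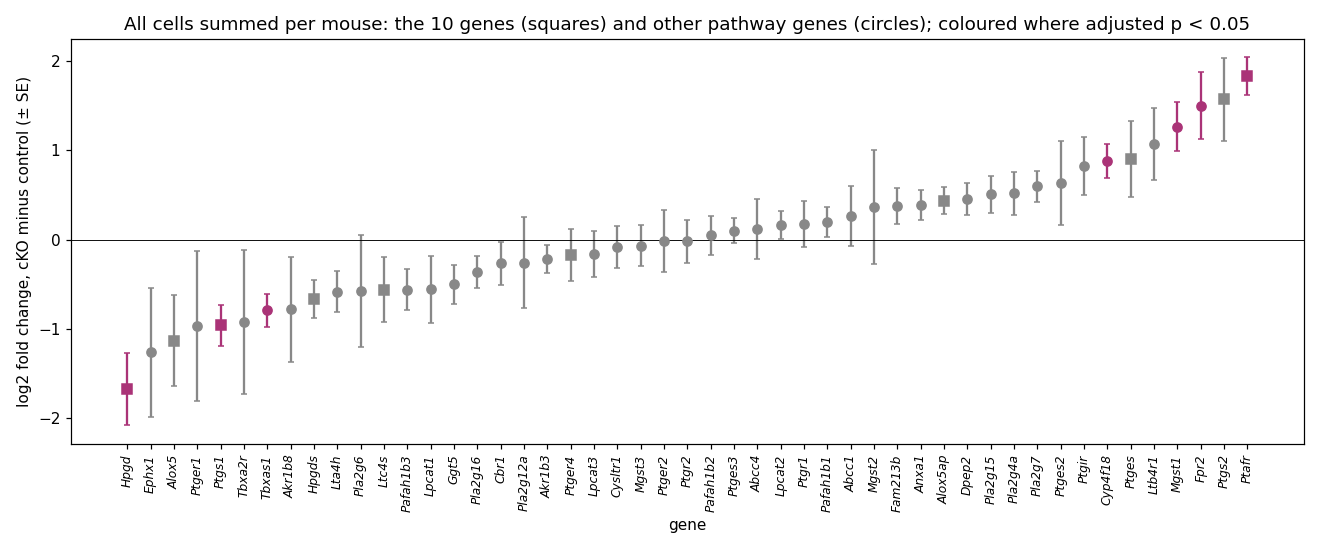
Log2 fold change between cKO and control mice over all cells (± SE) of the 10 genes (squares) and the 39 other pathway genes tested (circles), ordered by value and coloured where the adjusted p was under 0.05. Ptafr (1.83) and Hpgd (-1.67) are at the ends among the 10 genes, and Tbxas1 (-0.79), Cyp4f18 (0.88), Mgst1 (1.27) and Fpr2 (1.5) are the other pathway genes that passed.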

How the data were processed

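RNA of single cells of 8 mice, 1 library each, was sequenced. The authors aligned reads with Cell Ranger and STAR 2.5.3a to mm10 with EYFP added, and deposited whole-number UMI counts of all mice in a merged table, without normalization. Columns carry the well of a cell, and the labels give the mouse of a well. The cell filters of the methods were used (log10 UMIs of at least 2.8, log10 genes of at least 2.6, a mitochondrial share of at most 5%, no hemoglobin UMI), leaving 497531 to 3762314 UMIs per mouse. Cells were clustered with scran 1.30.0 (Ward, 9 clusters, 8 components) without the 10 genes, the other pathway genes, the markers and the genes of a supplementary list of the study, and a cluster was named from 3 or more markers among its 10 leading genes. Scrublet calls (scanpy 1.11.5) were kept. The form of the naming rule, and the members and lists, were chosen with earlier results of these data known.

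Sums of UMIs over a mouse, or over its cells in a cluster (at least 20 cells), were tested with edgeR 4.0.16 (TMM, glmQLFTest, Benjamini-Hochberg, 0.05) under R 4.3.3, on genes of at least 1 CPM in 3 sums and 20 cells. Alternatives used DESeq2 1.42.0, limma-voom 3.58.1, other filters, clusterings and weights, and left out each mouse. The fits were tested on simulated data, in which 200 genes were changed 4-fold. Every gene was given the same spread, and the sums of a mouse shared no effect, so the counts recovered hold for that setting. The fit over all cells recovered 174 of them, with 5 wrong calls. The cluster fits recovered 90 in dendritic cell-like cells, 57 in the Ccr2/Adgre4 cluster and 48 in monocyte-like cells. They recovered 20 in lymphoid-like cells, 13 in low-UMI macrophage-like cells and 11 in the Cebpb/Dusp2 cluster. A floor of 3 UMIs over the group stands for 0 UMIs. Intervals cover 95% and counting error only. Named genes were the 10 members, list genes past the threshold, and for each member the 3 genes of highest Pearson correlation with a mean of at least 20 CPM. Gene overlaps are those of GENCODE on GRCm38, which mm10 names. The Cell Ranger summaries of the study report reads on the strand opposite to a gene separately.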

Additional observations from a re-analysis of the deposited data

Results flagged for a closer look

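Among the 4 control mice, replicate 3 stood far below the others in 2 of the 10 genes over all cells. Ptges was at 1.70 CPM there, from 1 UMI, against 4.89 to 5.32 CPM in the other controls. Alox5ap was at 463 CPM, against 586 to 607 CPM. Control replicate 3 gave 85 cells, and chance alone marks a sample in this way in about 5% of groups. As 10 genes were searched, marks such as these can arise by chance.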

How the results depend on the processing

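No paired analysis was possible because the conditions share no replicate number. In 14 alternatives over all cells Ptafr passed each time (1.53 to 1.97 on the log2 scale). The 510 genes called became 787 without a low-count filter and 331 without the dendritic cell-like, lymphoid-like and stromal-like clusters, where 5 of the 10 genes passed. The 252 calls of gene and cluster became 386 with DESeq2, 590 without the filter, 678 with each cluster fitted alone and 423 with limma-voom, and those of the 10 genes became 4 without the filter and 4 with each cluster alone. Leaving out each mouse gave 155 to 738 genes called, 1 to 5 of the 10 genes, 132 to 412 calls of gene and cluster and 2 to 5 of them in the 10 genes. Ptgs1 lost its call without control replicates 1 or 2 or cKO replicates 6, 7 or 8 (adjusted p up to 0.144), and Hpgd without control replicates 1 or 2 or cKO replicates 5, 6 or 7 (adjusted p up to 0.137). Their directions held, and the cause was not tested.

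With a mouse left out, the sign turned in Ptger4 over all cells (-0.43 to 0.13), Ptgs2 in the Ccr2/Adgre4 cluster (-0.013 to 0.92), Ptafr in low-UMI macrophage-like cells (-0.024 to 0.34), and Hpgd in low-UMI macrophage-like (-0.64 to 0.25) and dendritic cell-like cells (-4.10 to 0.048). Among cluster averages it turned in Ptgs1 (-0.29 to 0.037), Hpgds (-0.078 to 0.37), Ptger4 (-0.53 to 0.019) and Ltc4s (-0.17 to 0.17). DESeq2 gave no adjusted p for Hpgd in monocyte-like cells (-3.80). The joined macrophage-like clusters, and the fits without the mice of under 100 cells, were chosen after seeing the data. Genes with few UMIs, such as Alox5 and Ptges, allow no firm statement within clusters.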
